A study of Bos taurus with 20 samples.

Results

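The genes described here are enzymes that make and handle fat, measured in skeletal muscle of young heifers. FASN (fatty acid synthase), SCD (stearoyl-CoA desaturase), ACACA (acetyl-CoA carboxylase alpha), DGAT1 (diacylglycerol O-acyltransferase 1) and LPL (lipoprotein lipase) were chosen by their Ensembl identifiers, 5 in all. The table used here lists 27607 identifiers, 4 of them among these 5. It pairs no identifier with a name, so the names are those given with the identifiers when the genes were listed. SCD (ENSBTAG00000045728) was not analysed here, which left 4 genes: ACACA (ENSBTAG00000017567), FASN (ENSBTAG00000015980), DGAT1 (ENSBTAG00000026356) and LPL (ENSBTAG00000012855). All 4 were abundant enough to be tested, in a fit over 12057 genes.

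In background, ACACA makes malonyl-CoA from acetyl-CoA, the committed step of fatty acid synthesis, and FASN builds palmitate from malonyl-CoA and acetyl-CoA. DGAT1 adds the last fatty acid to diacylglycerol to form triglyceride. LPL acts in a different way: it is secreted, sits on the capillary wall and releases fatty acids from the triglyceride of circulating lipoproteins, and it is made by muscle fibres as well as by fat cells. In ruminants most fatty acid synthesis takes place in adipose tissue, which includes the fat cells lying between muscle fibres.

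The animals were Angus X Holstein-Friesian heifers on a High or a Moderate plane of nutrition, 10 calves in each, all fed by group from 2 weeks of age and sampled at 21 weeks. Daily allowances for the High plane were 1.5 kg of milk replacer, made up to 10 litres, and concentrates to appetite during an 8-week calf phase, followed by 11 weeks of concentrates to appetite plus hay. For the Moderate plane they were 0.5 kg of milk replacer in 4 litres with 1 kg of concentrates, then 1 kg of concentrates plus hay. The intended growth was 1.2 kg and 0.5 kg per day, every calf gave 1 library of polyadenylated RNA, and the labels name neither the muscle nor a batch.

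Libraries held 12280289 to 14123113 reads assigned to genes. Levels are given as scaled CPM, read counts divided by a library size scaled with TMM (trimmed mean of M values, which sets libraries to a common level for most genes) and expressed as CPM. A single read was worth 0.0673 to 0.111 scaled CPM. Two-sided 95% intervals of single values cover counting error only. An earlier analysis of these data had singled out 2 outlying libraries, those of High plane replicate 2 and of replicate 4 on the Moderate plane. They had the lowest TMM factor of their group, 0.668 and 0.899, and High plane replicate 2 had the highest share of reads in its 20 most abundant genes, 47.3% against 33.1% to 43.1% in the other calves of its group. These 2 measures do not set Moderate plane replicate 4 clearly apart. High plane replicates 4 and 7 had lower factors, 0.846 and 0.867. Moderate plane replicate 8 had a higher share, 41.0% against 40.3%. The main results are given with and without the outlying libraries. Whether the muscle carried RNA of other cell types was not analysed here, because the identifiers of marker genes could not be paired with names. In bulk tissue, more cells of a kind and more RNA per cell cannot be told apart.

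The comparison of the feeding planes asks how these genes differ between calves reared for fast and for moderate growth. FASN and ACACA, the synthesis enzymes, had mean levels 2.41-fold and 1.43-fold higher on the High plane (back from the log2 scale used for the test). DGAT1 and LPL, at 1.12-fold and 1.02-fold, were closer to equal. None of the 4 passed the test after adjustment over all genes. Feeding group was the sole term of the test, a two-sided limma fit to log2(scaled CPM + 1), and a gene was called at a Benjamini-Hochberg adjusted p below 0.05. It called 0 of the 4 genes, against 2.14% of all genes tested (138 were higher on the High plane and 120 lower; 99 and 133 when the libraries were scaled by their totals alone). At an unadjusted p below 0.05, 2 of the 4 genes were higher on the High plane and 0 were lower, where 8.34% of all genes were higher and 7.53% lower. The median log2 fold change was 0.34 over the 4 genes and 0.01 over all genes tested.

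ACACA supplies the malonyl-CoA from which fatty acids are built. In the High plane calves its level ranged from 7.93 to 26.5 scaled CPM with a median of 11.8, and in the Moderate plane calves from 6.59 to 12.5 with a median of 9.10. The groups overlapped: 4 of the 10 High plane calves (replicates 5, 3, 7 and 2, at 26.5, 23.4, 19.6 and 17.9 scaled CPM) lay above every Moderate plane calf, and the other 6 lay within the Moderate range. Group means were 14.7 ± 6.69 and 9.32 ± 2.08 scaled CPM (SD, n = 10 each). On the log2(scaled CPM + 1) scale, High minus Moderate came to 0.51 ± 0.20 (SE), or 1.43-fold with a 95% interval of 1.08 to 1.89, and the limma adjusted p was 0.178 (unadjusted 0.0149). Without the 2 outlying libraries the difference was 0.45 with an adjusted p of 0.234. ACACA was not called under any of the 13 alternative settings or when any 1 calf was left out, and its lowest adjusted p was 0.0566, in DESeq2's Wald test.

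FASN carries out the chain-building step itself. Its High plane levels ranged from 24.1 to 249.6 scaled CPM with a median of 42.7, and its Moderate plane levels from 14.7 to 40.6 with a median of 22.9. A gap divided the High plane calves: replicates 5, 3 and 7 stood at 249.6, 165.7 and 113.1 scaled CPM, and the other 7 calves between 24.1 and 44.2. All 10 High plane calves were above the Moderate median, 6 were above the highest Moderate calf, and 5 Moderate calves were below the lowest High calf, so the groups still overlapped between 24.1 and 40.6. Because of the 3 calves, the size of the difference depended on how it was summarised. The ratio of the group means was 3.20 (78.6 ± 75.0 against 24.6 ± 9.06 scaled CPM, SD, n = 10 each), whereas the ratio of the group medians was 1.86.

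**Figure D1:**
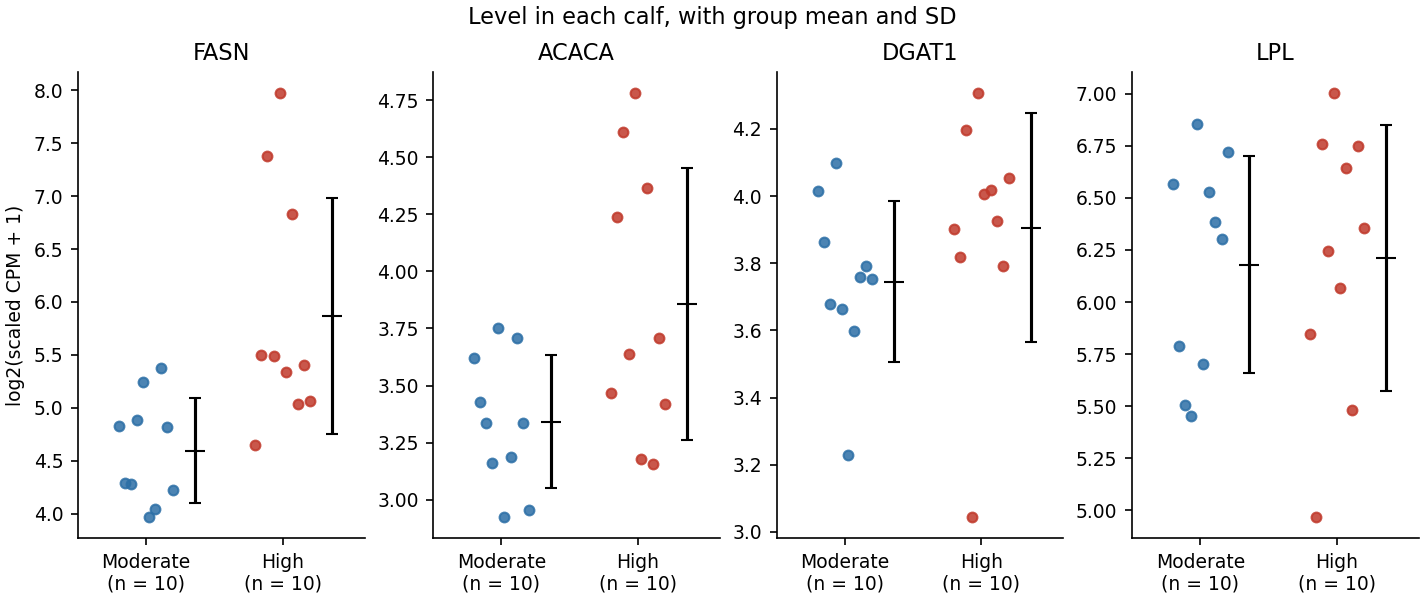
Level of each gene in each calf on the log2(scaled CPM + 1) scale (vertical axis, a separate range for each gene, not starting at 0), by feeding plane (horizontal axis). Each point is 1 calf, and the bar to the right of each group is the mean with its SD over 10 calves. The FASN panel shows 3 High plane calves far above the rest, the ACACA panel 4 above all Moderate plane calves, and in the DGAT1 and LPL panels the groups overlap over most of their range.

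On the log2(scaled CPM + 1) scale the difference in FASN was 1.27 ± 0.35 (SE), or 2.41-fold with a 95% interval of 1.47 to 3.96. The limma adjusted p was 0.0539 (unadjusted 0.00126), just short of the threshold. Among increases on the High plane the difference was near the top: 11 of the 12057 genes tested had a higher log2 fold change, with the sign kept. Genes lower on the High plane are not in that count. By p, over both directions, FASN ranked 282. Tests that start from the read counts did call FASN. The edgeR quasi-likelihood test gave a log2 fold change of 1.70 and an adjusted p of 0.0192, and it called 1 of the 4 genes where 1.39% of all genes were called higher. DESeq2 gave 1.68 and an adjusted p of 0.00254 (2.44% of all genes called higher), and limma voom with sample weights gave 1.52 and 0.0311 (2.97% of all genes called higher). FASN was the gene called in each of these tests, and over all 13 alternatives its adjusted p ran from 0.00254 to 0.0962. As folds, the edgeR and DESeq2 estimates were 3.25 and 3.21, near the 3.20 ratio of the group means. High plane replicates 5, 3 and 7 raise that ratio. Without the 2 outlying libraries, the log2 fold change was 1.34 with a limma adjusted p of 0.0517. Leaving out single calves gave adjusted p-values from 0.0369 to 0.105, and 4 of the 20 such fits passed the threshold, those without High plane replicates 1, 2 and 10 and without Moderate plane replicate 8. The log2 fold change stayed between 1.04 and 1.41 over these 20 fits.

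DGAT1 catalyses the final step of triglyceride assembly. Its High plane levels ranged from 7.25 to 18.8 scaled CPM (median 14.6) and its Moderate plane levels from 8.38 to 16.1 (median 12.5). The groups overlapped over most of their range, with 2 High plane calves above the highest Moderate calf and 9 of 10 above the Moderate median. The lowest value of all was that of High plane replicate 4. Means were 14.3 ± 3.09 and 12.6 ± 2.15 scaled CPM (SD, n = 10 each). High minus Moderate, on the log2 scale, came to 0.16 ± 0.13 (SE; 95% interval -0.11 to 0.43), and the limma adjusted p was 0.612. On the fold scale the interval runs from 0.925 to 1.35 and does not reach the 2.41-fold estimate for FASN. Leaving out High plane replicate 4 moved the log2 fold change of DGAT1 to 0.26 with an adjusted p of 0.256. Without the 2 outlying libraries it was 0.21 with an adjusted p of 0.416.

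LPL, which brings in fatty acids from the blood, showed the smallest group difference of the 4 genes. Its levels ran from 30.3 to 127.1 scaled CPM on the High plane (median 77.8) and from 42.8 to 114.6 on the Moderate plane (median 80.3). High and Moderate plane calves were mixed throughout this range, and 5 of 10 High plane calves were above the Moderate median. Means were 79.2 ± 30.8 and 75.7 ± 26.0 scaled CPM (SD, n = 10 each), and the log2 fold change came to 0.03 ± 0.24 (SE; 95% interval -0.46 to 0.52), with a limma adjusted p of 0.971, and the sign was negative in 8 of the 20 fits that left out 1 calf. The interval allows folds from 0.728 to 1.43, so a modest change in either direction was not detectable in these calves. The lowest LPL level of each group was in the outlying libraries, 30.3 scaled CPM in High plane replicate 2 and 42.8 in Moderate plane replicate 4. Without both, the log2 fold change was 0.09 with an adjusted p of 0.863.

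**Figure D2:**
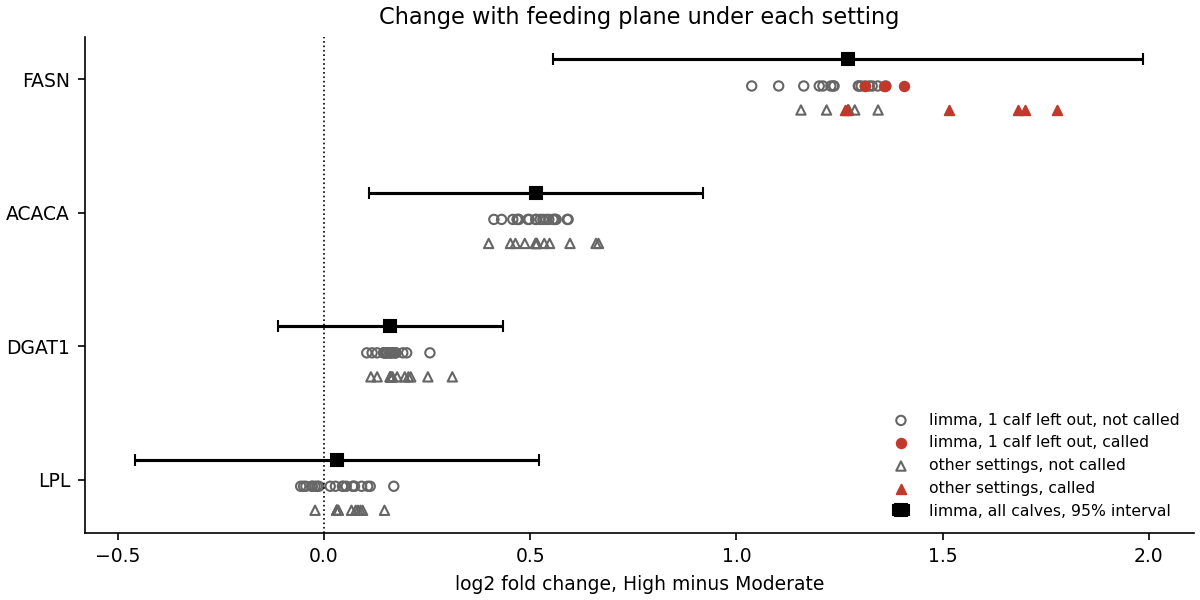
Log2 fold change, High minus Moderate (horizontal axis), for each gene. Black squares with bars are the limma estimate from all 20 calves and its 95% interval, circles are fits with 1 calf left out, triangles are the other settings, and filled red marks are called at an adjusted p below 0.05. Red marks appear for FASN alone, in 4 of 20 circles and 6 of 13 triangles, and the LPL marks lie on both sides of 0.

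Whether the group difference was larger in FASN than in the other genes was tested directly, on the difference of the log2 levels of each pair of genes in the same calf. This test was chosen after the levels had been seen. The High minus Moderate difference in FASN exceeded that in LPL by 1.24 ± 0.33 log2 units (SE; permutation p = 0.0014), that in DGAT1 by 1.11 ± 0.35 (p = 0.00289) and that in ACACA by 0.76 ± 0.23 (p = 0.0025), with 100000 two-sided permutations of the group labels and an adjusted p of 0.00578 for each over the 6 pairs. Relative to LPL, all 10 High plane calves had a higher FASN level than the Moderate median, and 5 had a higher one than any Moderate calf. A permutation of group labels also responds to unequal spread, and the spread of FASN was wider on the High plane. The difference in ACACA exceeded that in LPL by 0.48 ± 0.26 (permutation p = 0.0711, adjusted p = 0.107) and that in DGAT1 by 0.35 ± 0.20 (permutation p = 0.0989, adjusted p = 0.119). These contrasts, and that of 0.13 ± 0.27 between DGAT1 and LPL (permutation p = 0.633), did not pass.

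The calves varied much more in the synthesis enzymes on the High plane than on the Moderate plane, in the SDs of these samples. For FASN the coefficient of variation was 95.4% on the High plane and 36.9% on the Moderate plane, and for ACACA it was 45.6% and 22.4%. DGAT1, at 21.5% and 17.1%, and LPL, at 38.9% and 34.4%, differed less. Counting error was below these coefficients, with a median of 4.43% for FASN, 8.20% for ACACA, 7.21% for DGAT1 and 3.13% for LPL in the High plane libraries. In the Moderate plane libraries the medians were 5.75%, 8.99%, 7.60% and 3.02%, in the same order. Counting error was thus a larger part of the variation of ACACA and DGAT1 than of FASN and LPL. On the log2 scale the SD of FASN was 1.12 on the High and 0.50 on the Moderate plane, where the median gene had 0.30 and 0.31. FASN was among the most variable genes of the High plane calves, with a larger SD in 0.489% of the genes tested, and it was less extreme on the Moderate plane, with a larger SD in 14.8%. For LPL these shares were 3.79% and 12.8%, for ACACA 5.02% and 56.7%, and for DGAT1 38.5% and 73.9%.

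The difference in spread was tested with limma on the absolute deviations from the group median, fitted over all genes. It called 0 of the 4 genes and 0 of 12057 overall (0% larger and 0% smaller on the High plane). Mean deviations on the High and Moderate planes were 0.48 and 0.23 log2 units for ACACA (unadjusted p = 0.043, limma adjusted p above 0.999) and 0.77 and 0.43 for FASN (unadjusted p = 0.218). With deviations from the median, ACACA alone of the 4 had an unadjusted p below 0.05, where 0.722% of all genes had one in that direction and 1.97% in the other. With deviations from the group mean in their place, the unadjusted p was 0.0103 for FASN (limma adjusted p = 0.747) and 0.00471 for ACACA (adjusted p = 0.67). With deviations from the median again and without the 2 outlying libraries, the unadjusted p was 0.176 for FASN and 0.0932 for ACACA. No setting called any of the 4 genes, so the wider spread in these High plane calves is given as a description.

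The same calves tended to be high or low in several of the genes. High plane replicate 5 had the highest level of all 4 genes in its group and High plane replicate 3 ranked 2 in all 4. High plane replicate 7 was the third in FASN and ACACA and ranked 4 of 10 in DGAT1 and LPL. On the Moderate plane, replicate 6 was lowest in FASN, ACACA and DGAT1, at 14.7, 6.59 and 8.38 scaled CPM, and ranked 8 of 10 in LPL. Moderate plane replicate 5 was highest in ACACA and LPL, ranked 2 in FASN and only 8 in DGAT1. Other calves were high in some genes and low in others. High plane replicate 2 ranked 4 in FASN and ACACA but last in LPL, and replicate 4 of the Moderate plane ranked 3 in FASN, 1 in DGAT1 and last in LPL. Moderate plane replicate 10 ranked 8 in FASN and 9 in ACACA but 2 in LPL, and High plane replicate 9 ranked 9 in DGAT1 and 3 in LPL.

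**Figure D3:**
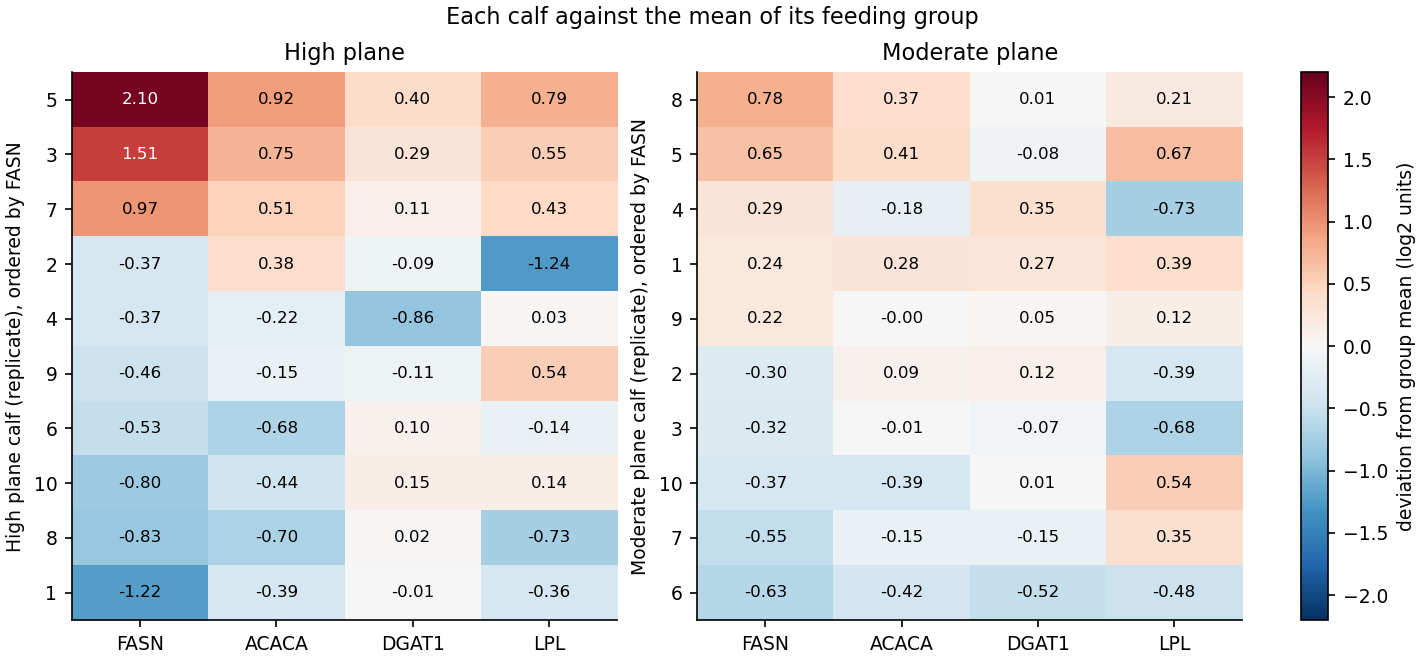
Deviation of each calf from the mean of its own feeding group in log2 units (colour and printed value), for 4 genes (columns) and the 10 calves of each plane (rows, ordered by FASN). Red is above and blue below the group mean. High plane replicates 5, 3 and 7 are above their group mean in every gene, and High plane replicate 2 is lowest in LPL.

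FASN and ACACA, which act one after the other, varied together between calves of the same group. With the group means removed, Pearson's r over the 20 calves was 0.87 (permutation p = 1e-05, the smallest that 100000 permutations can give; adjusted p = 6e-05 over the 6 pairs) and Spearman's rho was 0.88 (permutation p = 1e-05, adjusted p = 6e-05). Of 12053 other genes tested, 1 had a higher r to FASN and 2 had a higher r to ACACA. Since High plane replicates 3, 5 and 7 lie apart from the others in FASN, the relation was also taken within sets of calves. Among the 10 Moderate plane calves r was 0.79 (permutation p = 0.00922, adjusted p = 0.0553) and rho was 0.77 (permutation p = 0.0125, adjusted p = 0.075). Among the 10 High plane calves r was 0.89 (permutation p = 2.2e-04, adjusted p = 0.00132), but among the 7 without the separate 3 it was 0.49 (exact permutation p = 0.27, rho 0.71). Without the 2 calves farthest from the FASN median (High plane replicates 5 and 3), r over the remaining 18 was 0.76 (permutation p = 3e-04). Without the 2 outlying libraries it was 0.94, and leaving out any 1 calf gave 0.83 to 0.92.

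LPL had lower correlations with the synthesis enzymes than these had with each other, a difference that was not tested. Its r to FASN was 0.54 (permutation p = 0.0237, adjusted p = 0.0711) and rho was 0.49 (permutation p = 0.0389, adjusted p = 0.0583), which did not pass after adjustment over the 6 pairs. Its r to ACACA was 0.40 (permutation p = 0.105, adjusted p = 0.157) with rho 0.51 (permutation p = 0.0339, adjusted p = 0.0583). Both relations passed without the 2 outlying libraries, where r was 0.65 to FASN (permutation p = 0.00379, adjusted p = 0.0114) and 0.63 to ACACA (permutation p = 0.00671, adjusted p = 0.0134). Without High plane replicates 5 and 3, the calves with the highest FASN and ACACA, and with the outlying libraries kept, r was 0.35 to FASN (permutation p = 0.176) and 0.17 to ACACA (permutation p = 0.528). The 4 calves were not left out together. Among the 7 High plane calves without the separate 3, LPL had an r of 0.04 to FASN (exact permutation p = 0.924) and -0.33 to ACACA (exact permutation p = 0.476). The rho of LPL in these calves was 0.04 to FASN and 0.07 to ACACA. Among Moderate plane calves the r of LPL to FASN was 0.32 (permutation p = 0.359), against 0.64 among High plane calves (permutation p = 0.0434, adjusted p = 0.13), and the difference between the groups was not tested.

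**Figure D4:**
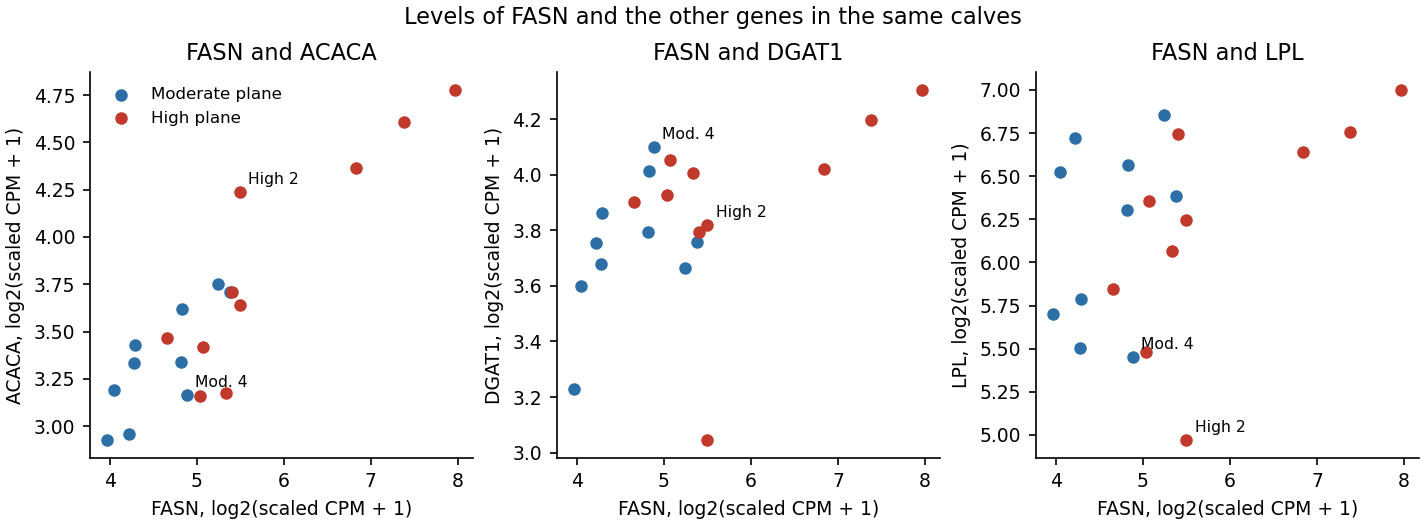
Levels of ACACA, DGAT1 and LPL (vertical axes) against FASN (horizontal axes) in the same calves, all on the log2(scaled CPM + 1) scale, with blue points for the 10 Moderate and red points for the 10 High plane calves. ACACA follows FASN in both groups (r = 0.87 within groups), and the 3 red points at the right are High plane replicates 7, 3 and 5. High plane replicate 2 and Moderate plane replicate 4 (Mod. 4) are labelled and lie lowest of their groups in LPL.

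For DGAT1 no relation passed after adjustment. Its r was 0.47 to FASN (permutation p = 0.0713, adjusted p = 0.143; rho 0.52, permutation p = 0.0272, adjusted p = 0.0583), 0.36 to ACACA (permutation p = 0.171; rho 0.29, permutation p = 0.238) and 0.17 to LPL (permutation p = 0.491; rho 0.20, permutation p = 0.412). Without High plane replicates 5 and 3, the r of DGAT1 was 0.21 with FASN and 0.10 with ACACA. Among the 7 High plane calves without the separate 3, it was -0.47 with FASN (exact permutation p = 0.225) and -0.30 with ACACA (exact permutation p = 0.458). The rho of DGAT1 in these calves was -0.57 with FASN and -0.71 with ACACA. With the libraries scaled by their totals alone, the r of DGAT1 to LPL was 0.49 (permutation p = 0.054, adjusted p = 0.0708).

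Library measures were set against the 4 genes. Of 12 relations within groups between the genes and the total reads, the share of the 20 most abundant genes and the TMM factor, none passed after adjustment (lowest adjusted p = 0.463 by permutation). The highest r was that of LPL with the TMM factor, with r = 0.50 (permutation p = 0.0386) and rho = 0.36 (permutation p = 0.15). It was 0.09 without the 2 outlying libraries. For DGAT1 and the TMM factor r was 0.32 (permutation p = 0.219) and rho was 0.36 (permutation p = 0.141), and r was 0.54 without the 2 outlying libraries and 0.01 without the 2 calves farthest in the TMM factor. For ACACA and the total reads r was 0.04 (permutation p = 0.873) and rho was 0.07 (permutation p = 0.771), and r was 0.51 without the 2 calves farthest in total reads. For FASN and the TMM factor r was 0.08 (permutation p = 0.802) and rho was -0.13 (permutation p = 0.631). With the total reads, FASN had an r of 0.03 (permutation p = 0.899) and a rho of 0.16 (permutation p = 0.524). Its r was 0.34 without the 2 calves farthest in total reads, Moderate plane replicate 4 and High plane replicate 3.

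Outside the 4 genes, those most like FASN and most like LPL over the 20 calves can be given by identifier only. Gene ENSBTAG00000055207 was closest to FASN, with r = 0.93 within groups (0.98 among High and 0.78 among Moderate plane calves), and it also followed ACACA (r = 0.91). Its level averaged 115.7 ± 103.4 scaled CPM on the High plane and 53.6 ± 23.0 on the Moderate plane (SD, n = 10 each), a log2 difference of 0.80 ± 0.35 (SE) with a limma adjusted p of 0.259. Next outside the 4 came ENSBTAG00000011934, with r = 0.83 to FASN, whose mean level was nearly equal in the groups, at 3.41 ± 4.71 and 3.31 ± 3.80 scaled CPM (SD, n = 10 each). Its lowest High plane value, 0.136 scaled CPM, stood for fewer than 3 reads, so this likeness rests partly on values near the floor. For LPL the closest was ENSBTAG00000044077 (r = 0.83), at a low mean of 1.34 scaled CPM on the High and 1.20 on the Moderate plane. Second was ENSBTAG00000038477 (r = 0.78, and 0.60 without the 2 outlying libraries). The latter averaged 14.5 ± 2.74 scaled CPM on the High and 17.4 ± 2.91 on the Moderate plane (SD, n = 10 each), a log2 difference of -0.26 ± 0.12 (SE) with a limma adjusted p of 0.311, and its r to FASN was 0.25. An r above 0.8 was reached by 4 genes for FASN, 2 for ACACA, 6 for DGAT1 and 1 for LPL, out of 12053. These likenesses were picked as the highest among many and are descriptions.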

How the data were processed

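Skeletal muscle RNA of 20 calves was sequenced, 10 per feeding plane by the treatment label, and numbered in accession order within each group. Per the submitters' processing notes, STAR 2.6.1, cutadapt 2.6, FastQC 0.11.8, edgeR 3.5 and R 3.4 were used, with genome build ARS-UCD1.2. Not given in the sources used here are the counting tool, its use of strand and the annotation. The values deposited by the authors are a scaled signal: reads divided by a TMM-scaled library size, which the values themselves show. Whole reads were recovered (100% of values within 0.01 of a whole read), and TMM factors recomputed from them matched those of all 20 columns within 1e-05. No column lacked a sample (0 unused).

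Genes passing edgeR's filterByExpr (4.0.16, minimum count 10) were tested with limma 3.58.1 with an intensity trend (R 4.3.3) on log2(scaled CPM + 1); folds on this scale understate changes of low genes. DESeq2 1.42.0, edgeR and voom on the recovered reads, other pseudocounts, filters and scalings, covariates (sva 3.50.0) and left-out calves were alternatives. Correlations and differences between genes used 100000 permutations (numpy 2.4.6), within groups for correlations. On simulated data over 12057 genes, limma recovered 49.3% of genes changed 1.5-fold, 77.3% changed 2-fold and 98.5% changed 3-fold. These rates are averages over genes drawn at random and were not worked out for the 4 genes. They do not carry over to FASN, whose SD pooled over the groups was exceeded by 1.30% of genes tested.

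The genes and the lists were chosen with earlier results of these data known. Beyond the 4 genes, the rule named the 2 genes with the highest r to FASN and the 2 with the highest r to LPL. A gene reference, separate from the expression values, holds 0 Ensembl identifiers in 37063 rows and describes another assembly. Pathway and cell type lists, promoter motifs and positions were therefore not analysed here. Of the 5 identifiers, 4 were matched in the table used here, and SCD was not analysed here.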

Additional observations from a re-analysis of the deposited data

Results flagged for a closer look

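In 8 groups of 10 values (4 genes in each feeding plane, on the log2 scale), 1 value lay far from the rest of its group by Dixon's test; chance picks out about 1 in 20 groups. DGAT1 was at 7.25 scaled CPM in High plane replicate 4 (81 reads, 95% Poisson interval 5.76 to 9.01 for counting error), and the next lowest calf of the group was at 12.9. The same calf ranked 5 of 10 in FASN and 6 in ACACA and LPL, at 44.0, 11.5 and 74.7 scaled CPM. Its part in the DGAT1 comparison is given by the fit without it, a log2 fold change of 0.26 with a limma adjusted p of 0.256.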

How the results depend on the processing

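FASN was higher on the High plane under all 13 alternatives and all 20 fits without 1 calf. It passed the threshold in 6 of the 13: edgeR's quasi-likelihood test (log2 fold change 1.70), the same test without the 2 outlying libraries (1.78, added after the data were seen), DESeq2 (1.68), voom (1.52), a covariate for how much of a library its 20 most abundant genes take up (1.26) and 1 surrogate variable (1.27). ACACA and DGAT1 stayed positive and uncalled in every one of these fits. LPL was -0.022 with library totals only, and was uncalled throughout. Without 1 calf the log2 fold changes ran from 1.04 to 1.41 for FASN, 0.41 to 0.59 for ACACA, 0.10 to 0.26 for DGAT1 and -0.056 to 0.17 for LPL. LPL was below 0 without High plane replicates 3, 5, 7 or 9 or Moderate plane replicates 2, 3, 4 or 6.

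Genes called over the whole table numbered 138 higher and 120 lower, and 294 and 293 with DESeq2, 358 and 267 with voom, 231 and 186 without the 2 outlying libraries (244 and 229 with edgeR), 291 and 240 with the covariate and 537 and 386 with the surrogate variable; without 1 calf they ran from 80 to 210 and 62 to 200. Both counts rose without High plane replicate 2 (210, 200) and dropped without Moderate plane replicate 2 (80, 62) and High plane replicates 4 (89, 77) and 5 (91, 78), and the lower count alone dropped without High plane replicates 6 (77) and 9 (68), each by over 1.5 times. The causes were not tested.

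The r of FASN with ACACA was 0.79 among Moderate plane calves, short of the threshold after adjustment. Among the 7 High plane calves without the separate 3, a set taken after the data were seen, it was 0.49, and the r was -0.47 for FASN and DGAT1, -0.30 for ACACA and DGAT1, -0.33 for ACACA and LPL and -0.15 for DGAT1 and LPL. By rho, ACACA and LPL were at 0.07 in this set. LPL passed with FASN and ACACA without the 2 outlying libraries (0.65 and 0.63) and with library totals only (0.60 and 0.55). The spread of the 4 genes stayed wider on the High plane and uncalled under 3 alternatives. The 6 differences between genes kept their side of the threshold under 3 settings added later. The 2 planes hold different calves and the labels name no pairing, so no paired analysis was made. Depth gave 81 to 393 reads per calf for ACACA and DGAT1. With 10 calves per group the 95% intervals stayed wide, 0.728 to 1.43-fold for LPL and, wider still, 1.47 to 3.96-fold for FASN.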
